A study of Mus musculus with 30 samples.

Results

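The 9 mouse CC chemokine genes Ccl2, Ccl3, Ccl4, Ccl5, Ccl6, Ccl7, Ccl8, Ccl9 and Ccl12 were followed in microglia and astrocytes sorted from the spinal cord. They were found by gene name among the protein-coding genes of the deposited annotation, and all 9 were matched by gene identifier to the expression table of 30952 genes. CC chemokines are small secreted proteins with adjacent cysteines near their amino terminus. They bind G protein-coupled receptors on leukocytes and direct these cells along a gradient into tissue. In the inflamed CNS they are known as signals that bring monocytes, T cells and other leukocytes into the parenchyma, and microglia, astrocytes and infiltrating cells can all produce them.

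Experimental autoimmune encephalomyelitis (EAE), a mouse model of multiple sclerosis, was induced in female C57BL/6 mice with the myelin peptide MOG35-55, and treatment began at a clinical score near 1. EAE-vehicle mice received 20% Captisol, a modified cyclodextrin used to dissolve compounds, and EAE-RIPK1inh-1 mice received the RIPK1 kinase inhibitor labelled GSK'547 at 50 mg/kg, by oral gavage BID for 3 days. Naive mice were left without EAE. Microglia were gated as CD11b+CD45intCX3CR1+ and astrocytes as GLAST+CD11b-CD45-CD140a-, from 4 naive, 6 EAE-vehicle and 5 EAE-RIPK1inh-1 samples of each cell type, 30 libraries in all. The questions were how EAE and RIPK1 kinase inhibition alter gene expression in each cell type. All mice were of 1 strain and 1 sex, no group received RIPK1inh-1 without EAE, and the intermediate CD45 gate does not by itself exclude blood-derived myeloid cells that have entered the tissue.

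Values are log2 FPKM, a fragment count divided by exon length and by the mapped total, quantile-normalized by the authors over the 30 libraries. A difference of 1 on this scale is a 2-fold change. The offset added before the logarithm is not given in the sources used here, so differences from low levels depend on it, and a gene without signal is described as listed at 0. Read depth is unknown. Between 8710 and 20398 genes had signal per microglia library and between 6728 and 22981 per astrocyte library, the lowest in EAE-vehicle astrocyte library 1. The 8 housekeeping genes examined had signal in all 30 libraries. The 10 microglia markers averaged 7.74 to 10.63 in microglia libraries and 0.88 to 3.45 in astrocyte libraries, and the 8 astrocyte markers 8.30 to 9.64 in astrocyte and 0.99 to 2.23 in microglia libraries. Astrocyte libraries also carried oligodendrocyte transcripts, with means of 7 markers from 6.19 to 9.91. The study cutoff, a change of more than 1.5-fold with an unadjusted p under 0.05 in limma, defined a call. Adjusted p-values are from limma, by the Benjamini-Hochberg method over every gene tested.

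All 9 genes lie on chromosome 11 in GRCm38, in 2 stretches separated by 1408978 bases. The stretch from 82035571 to 82116799 holds Ccl2, Ccl7, Ccl12 and Ccl8, the monocyte chemoattractant genes, all on the + strand. The stretch from 83525778 to 83664683 holds Ccl5, Ccl9, Ccl6 and Ccl3 on the - strand and Ccl4 on the + strand. The deposited annotation marks Ccl2 and Ccl6 as confounded with another gene, as it does 15717 of the 30952 genes. In GENCODE the span of each overlaps a gene on the opposite strand, and no exons overlap. Whether reads of those partners were included is not known.

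Microglia in EAE held more transcript of the monocyte chemoattractants and of Ccl5. Of the 9 genes, 5 rose in EAE-vehicle against naive microglia (Ccl2, Ccl5, Ccl7, Ccl8 and Ccl12), where 6.13% of the 28958 genes tested were called higher. All 5 also had an adjusted p under 0.05, which 2.37% of genes tested reached in that direction. These shares include many genes near 0. Of the 10413 genes with a mean of at least 1 log2 FPKM, fitted alone, 1702 were called higher and 1315 lower. In that fit 1040 were higher with a limma adjusted p under 0.05. Ccl3, Ccl6 and Ccl9 fell at the study cutoff, 3 of 9 against 5.86% of all genes, but none of the 3 had an adjusted p under 0.05. The median difference of the 9 genes was 2.64 in log2 FPKM, against -0.02 over all genes tested. Fewer transcripts per cell and fewer cells of a type cannot be told apart in such bulk samples.

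Promoters are shown for 4 of the genes, to set 2 that rose beside 2 that fell. RefSeq promoter sequences of GRCm38.p6 were matched for 5 of the 9 genes (Ccl12, Ccl8, Ccl9, Ccl6 and Ccl3), and Ccl2, Ccl4, Ccl5 and Ccl7 were not in the table. Each line gives the 250 bases before the annotated start, 5′ to 3′ on the strand of the gene, and capitals mark matched motifs.
Ccl12: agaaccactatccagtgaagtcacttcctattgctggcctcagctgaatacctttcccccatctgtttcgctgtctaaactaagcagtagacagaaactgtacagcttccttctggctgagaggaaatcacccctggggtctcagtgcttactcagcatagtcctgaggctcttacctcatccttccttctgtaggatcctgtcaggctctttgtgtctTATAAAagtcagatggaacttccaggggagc
Ccl8: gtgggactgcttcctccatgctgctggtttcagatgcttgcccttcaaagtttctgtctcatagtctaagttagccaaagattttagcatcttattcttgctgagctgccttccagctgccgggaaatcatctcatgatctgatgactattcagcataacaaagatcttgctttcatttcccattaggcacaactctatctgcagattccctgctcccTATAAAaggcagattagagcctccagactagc
Ccl9: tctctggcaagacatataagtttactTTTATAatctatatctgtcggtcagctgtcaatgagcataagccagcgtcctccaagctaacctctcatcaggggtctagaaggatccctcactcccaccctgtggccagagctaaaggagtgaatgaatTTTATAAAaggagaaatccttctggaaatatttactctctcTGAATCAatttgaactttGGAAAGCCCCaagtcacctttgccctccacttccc
Ccl3: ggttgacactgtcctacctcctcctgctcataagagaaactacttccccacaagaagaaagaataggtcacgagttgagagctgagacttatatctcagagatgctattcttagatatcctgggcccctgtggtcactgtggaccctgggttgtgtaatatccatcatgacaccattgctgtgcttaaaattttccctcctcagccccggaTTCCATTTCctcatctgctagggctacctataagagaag

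These stretches are chr11:82101595-82101844 (+) for Ccl12, chr11:82114935-82115184 (+) for Ccl8, chr11:83578637-83578886 (-) for Ccl9 and chr11:83649379-83649628 (-) for Ccl3. The RefSeq start used for Ccl3 lies apart from the GENCODE transcript start. Both strands were searched for the AP-1 motif TGANTCA, the interferon-gamma activated sequence TTCNNNGAA, the interferon response core GAAANNGAA, the NF-kB consensus and the TATA box TATAAA, the last of which was added after the sequences were seen. TATAAA lies 31 to 26 bases before the start in Ccl12 and 32 to 27 bases before it in Ccl8, and 12.4% of 32851 promoters of this length hold it. Ccl9 holds it 92 to 87 bases before the start and in reverse at 94 to 89, which overlaps that match, and at 224 to 219 bases. Ccl9 also holds an AP-1 match 53 to 47 bases before the start and an NF-kB match on the opposite strand at 35 to 26 bases. Ccl3 holds an interferon response core on the opposite strand 39 to 31 bases before the start. The shares of promoters with a match were 6.75% for AP-1, 7.02% for TTCNNNGAA, 7.13% for GAAANNGAA and 3.90% for NF-kB. The Ccl6 window held none of these letters.

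Ccl12, a ligand of Ccr2 made by mouse myeloid cells, was the most abundant of the 9 transcripts in EAE microglia. Naive libraries held 7.00, 9.16, 4.67 and 7.95 log2 FPKM, and EAE-vehicle libraries ranged from 10.10 to 11.32 with a median of 10.60. The lowest EAE-vehicle library lay above the highest naive one. The difference was 3.42 log2 ± 0.69 (SE), with a limma adjusted p of 0.0103, and was higher in 6 of 6 EAE-vehicle libraries than the naive mean. Without the 4 microglia libraries with the most neutrophil RNA, or with a replicate block, its adjusted p was 0.0542 or 0.0657.

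Ccl2, the principal monocyte attractant acting on Ccr2, held 7.87, 7.13, 4.24 and 7.28 log2 FPKM in naive microglia. In EAE-vehicle microglia it ranged from 8.80 to 9.92 with a median of 9.24. The groups did not overlap, and naive library 3 was the lowest. The level rose by 2.64 log2 ± 0.55 (SE, limma adjusted p = 0.0131).

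Ccl7, another Ccr2 ligand, was near or at the floor in most naive libraries. These held 1.64, 5.22, 0 and 0 log2 FPKM, against 6.85 to 8.50 with a median of 7.65 in EAE-vehicle libraries. Naive library 2 was far above the other naive libraries and still under every EAE-vehicle library. The fitted difference was 5.90 log2 ± 0.87 (SE, limma adjusted p = 9.57e-04), a size that depends on the offset since 2 naive libraries were at 0.

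Ccl8, which in the mouse acts mainly on Ccr8, was listed at 0 in all 4 naive libraries. EAE-vehicle libraries held 5.01, 4.17, 3.50, 0, 4.09 and 4.67 log2 FPKM. It was therefore listed with signal in 5 of 6 EAE-vehicle libraries, and library 4 overlapped the naive group. No fold is given against a group at 0. The limma adjusted p was 0.0136, and it was 0.17 without the neutrophil-high libraries.

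Ccl5, an attractant of T cells and monocytes that T and NK cells also make, showed the largest fitted rise among the genes for which a difference could be given. Naive microglia held 1.21, 4.38, 2.19 and 0 log2 FPKM, and EAE-vehicle microglia 8.22 to 8.98 with a median of 8.63. The 6 EAE-vehicle libraries lay within a narrow band well above every naive library. The difference was 6.65 log2 ± 0.58 (SE, limma adjusted p = 8.26e-06). Across the 12 T and NK cell markers the mean level was 0.09 to 0.76 in naive and 0.30 to 0.88 in EAE-vehicle microglia, with 1 to 4 and 1 to 11 markers with signal. Nkg7, a granule protein of cytotoxic lymphocytes, had a median of 0.14 in naive and 2.33 in EAE-vehicle libraries. It had signal in 1 of 4 naive libraries, at 4.80, and in 5 of 6 EAE-vehicle libraries, at most at 2.95. Trac, the T cell receptor alpha constant region, had signal in 0 of 4 and 4 of 6. Medians of the other T and NK cell markers went both ways from naive to EAE-vehicle, such as 0.35 to 0.80 for Lck and 0.63 to 0.37 for Cd3e. Most of these medians were near the floor, and Cd3e had signal in 1 of 4 naive and 2 of 6 EAE-vehicle libraries. In the same order, signal was in 2 and 3 for Lck, 0 and 3 for Cd3g, and 1 and 3 for Cd2. It was in 1 and 2 for Cd3d and Ncr1, 0 and 2 for Trbc2 and Gzma, 1 and 1 for Cd4, and 0 and 0 for Klrb1c. The part of these cells in the microglial Ccl5 level was not tested.

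Ccl3 and Ccl4, neighbouring genes of the macrophage inflammatory proteins, were among the more abundant of the 9 in naive microglia and had lower means in EAE. Ccl3 held 6.71, 8.91, 6.65 and 7.87 log2 FPKM in naive libraries and 4.48 to 7.79 with a median of 5.88 in EAE-vehicle libraries. The groups overlapped, since EAE-vehicle library 4 exceeded naive libraries 1 and 3. Ccl3 fell by 1.62 log2 ± 0.67 (SE) at an unadjusted p of 0.0303, while the limma adjusted p was 0.279 and the two-sided exact permutation p was 0.0429. Leaving out naive library 2 gave a difference of -1.17 and ended the call, as did leaving out naive library 4 or EAE-vehicle library 3, 5 or 6, with differences of -1.51 to -1.34.

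Ccl4 held 6.33, 9.14, 7.23 and 8.05 log2 FPKM in naive microglia and 5.57 to 7.60 with a median of 6.22 in EAE-vehicle microglia. All 6 EAE-vehicle values were below the naive mean of 7.69, and the ranges overlapped. The difference of -1.37 log2 ± 0.65 (SE) was not called (exact permutation p = 0.0571). It was called under several alternatives, among them without naive library 1 (-1.82) and without EAE-vehicle library 4 (-1.62).

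Ccl6 and Ccl9, ligands of Ccr1 expressed by myeloid cells, were lower in EAE. Ccl6 was the most abundant of the 9 in naive microglia, at 8.89, 8.23, 7.68 and 8.16 log2 FPKM, and EAE-vehicle libraries held 6.34 to 7.67 with a median of 7.27. The groups did not overlap, by a margin of less than 0.1. Ccl6 fell by 1.12 log2 ± 0.34 (SE, limma adjusted p = 0.0962, exact permutation p = 0.00476, the smallest the design allows).

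Ccl9 held 6.86, 6.03, 6.36 and 4.65 log2 FPKM in naive microglia and 3.92 to 4.72 with a median of 4.40 in EAE-vehicle microglia. Naive library 4 lay within the EAE-vehicle range, and the other naive libraries lay above it. Ccl9 fell by 1.60 log2 ± 0.46 (SE, limma adjusted p = 0.0746, exact permutation p = 0.00952).

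**Figure D1:**
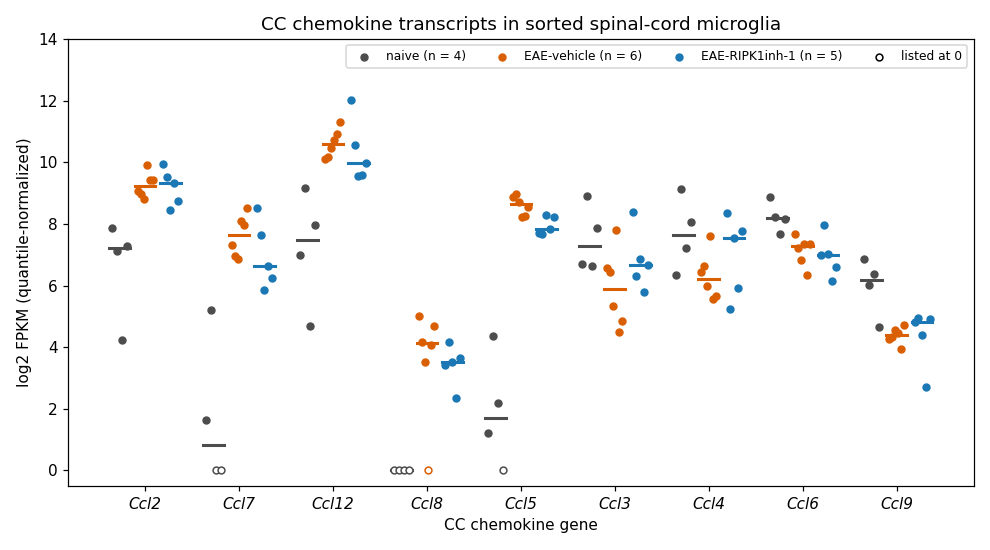
Levels of the 9 CC chemokine genes in log2 FPKM (vertical axis) in the microglia libraries of the 3 groups, with 1 point per library, open points for libraries listed at 0 and bars at the medians. Ccl2, Ccl7, Ccl12 and Ccl5 of both EAE groups sit above all naive libraries, and Ccl8 is listed at 0 in the 4 naive libraries.

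The order of the 9 levels, which FPKM allows since it is per exon length, was set out for naive and EAE microglia. In naive microglia the means ran from Ccl6 (8.24) through Ccl4 (7.69), Ccl3 (7.54), Ccl12 (7.20) and Ccl2 (6.63) to Ccl9 (5.97), and each of these overlapped its neighbour. A gap of 4.03 log2 ± 1.70 (SD over 4 libraries) separated Ccl9 from Ccl5, which was followed by Ccl7 and by Ccl8 at 0. In EAE-vehicle microglia the order was Ccl12 (10.62), Ccl2 (9.27), Ccl5 (8.60), Ccl7 (7.61), Ccl6 (7.12), Ccl4 (6.32), Ccl3 (5.91), Ccl9 (4.37) and Ccl8. Ccl12 exceeded Ccl2 in 6 of 6 libraries, by 1.35 log2 ± 0.41 (SD), and was the only gene whose range did not overlap that of the next in the order.

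Other transcripts moved with EAE in the same libraries. The mean of the 10 microglia markers, such as P2ry12 and Tmem119, was 10.09 to 10.63 in naive and 7.74 to 8.33 in EAE-vehicle microglia, and all 10 had signal in each of these libraries. The mean of the 9 monocyte and neutrophil markers was 3.00 to 7.96 (median 4.22) in naive and 3.29 to 7.70 (median 5.86) in EAE-vehicle microglia. Among these, Ly6c2 had signal in 1 of 4 naive and 6 of 6 EAE-vehicle libraries, and Ccr2 in 0 of 4 and 4 of 6. Medians went from 2.23 to 5.62 for Plac8 and from 5.30 to 7.93 for Chil3. For the neutrophil markers they were 0.43 and 0.20 for Ly6g, 8.86 and 9.38 for S100a8, and 7.60 and 7.52 for S100a9. Those of Camp were 6.00 and 6.62, and those of Ngp 6.60 and 7.09. The part of these cells in the chemokine levels was not tested beyond leaving out the 4 libraries with the most neutrophil RNA (naive 3, EAE-vehicle 1 and 3, and EAE-RIPK1inh-1 3). Without them 5 genes were still called higher and 2 lower, and 3 (Ccl2, Ccl5 and Ccl7) had an adjusted p under 0.05. Centring each library on its median of genes with signal in all libraries moved the median difference of all genes from -0.02 to -0.22 and the split of calls from 1775 higher and 1698 lower to 1344 and 3002. The directions of all 9 genes were kept under that centring.

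No CC chemokine passed the cutoff in microglia after RIPK1inh-1. None of 9 was called against EAE-vehicle, where 1.76% of all genes were called in either direction, and 0 had an adjusted p under 0.05 or an unadjusted p under 0.05 in limma. The fitted differences ran from -0.66 for Ccl5 to 0.89 for Ccl3. The 95% intervals were -1.18 to 1.05 for Ccl2, -2.39 to 1.10 for Ccl7, -1.68 to 1.12 for Ccl12, -1.83 to 0.51 for Ccl5, -0.47 to 2.25 for Ccl3, -0.66 to 1.96 for Ccl4, -0.86 to 0.51 for Ccl6, -1.67 to 1.37 for Ccl8 and -0.96 to 0.89 for Ccl9. Changes of 2-fold therefore lay inside the intervals of Ccl2, Ccl3, Ccl4, Ccl5, Ccl7, Ccl8 and Ccl12 in at least 1 direction, so this comparison could not exclude them.

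**Figure D2:**
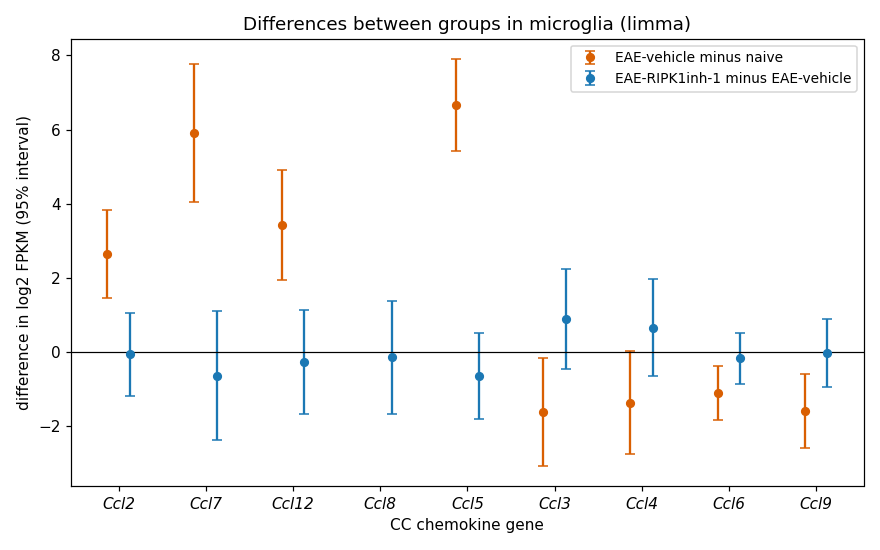
Fitted differences in log2 FPKM (points) with 95% intervals (bars) for the 9 genes in microglia, EAE-vehicle minus naive and EAE-RIPK1inh-1 minus EAE-vehicle. The intervals of the EAE difference lie above 0 for Ccl2, Ccl7, Ccl12 and Ccl5 and below 0 for Ccl3, Ccl6 and Ccl9, and every interval of the RIPK1inh-1 difference includes 0. No EAE difference is drawn for Ccl8, which was listed at 0 in naive microglia.

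In the exact permutation test, Ccl5 came nearest to a difference between treated and vehicle microglia. The largest fitted difference in limma was that of Ccl3 (0.89), which had an exact permutation p of 0.232. For Ccl5, EAE-RIPK1inh-1 libraries held 7.71, 7.66, 8.27, 7.83 and 8.22 log2 FPKM, and the EAE-vehicle libraries 8.86, 8.98, 8.71, 8.22, 8.26 and 8.55. All 5 treated libraries lay below the vehicle mean of 8.60, and the ranges overlapped only between 8.22 and 8.27. The Ccl5 difference of -0.66 log2 had an exact two-sided permutation p of 0.0195, 1 of 63 such tests made here. Its limma p was 0.247 in the fit that shares its spread with the naive libraries. With only the EAE groups in the fit the p was 0.00431 and the gene was called, but no adjusted p was under 0.05.

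The other 8 genes overlapped broadly between treated and vehicle microglia. Ccl3 held 8.39, 6.30, 6.85, 5.77 and 6.68 log2 FPKM after RIPK1inh-1, a difference of 0.89 ± 0.63 (SE) that was called without EAE-vehicle library 4 (1.27) and not otherwise when 1 library was left out. Ccl4 held 8.34, 5.24, 7.56, 5.92 and 7.78. EAE-RIPK1inh-1 library 1 was the highest of the treated libraries for Ccl2, Ccl3, Ccl4, Ccl7 and Ccl12. Ccl8 held 3.43, 4.15, 3.53, 2.37 and 3.66 after RIPK1inh-1, below 5.01 in the highest vehicle library and above the vehicle library at 0. Without that library Ccl8 was lower by the cutoff (-0.86). Ccl9 was lowest in treated library 4 (2.70) and 4.39 to 4.93 in the other treated libraries.

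Within groups, some of the 9 genes varied together from library to library in microglia. Deviations from the group means were compared for all 36 pairs over the 15 microglia libraries, as a description. Ccl3 and Ccl4 had the highest Pearson r of deviations, 0.84 (Spearman rho 0.79), which was 0.82 without the 2 libraries farthest from the median of Ccl3. Ccl12 came next with Ccl7 (r = 0.77, rho = 0.65, 0.93 without 2 libraries) and with Ccl2 (r = 0.76, rho = 0.70, 0.56 without 2 libraries). Ccl5 and Ccl7 had an r of 0.58, a rho of -0.08 and an r of 0.50 without 2 libraries. The median r was 0.27 over the 6 pairs within the Ccl2 stretch, 0.25 over the 10 pairs within the Ccl5 stretch and 0.20 over the 20 pairs across stretches. The libraries of a pair share their cells and their normalization.

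**Figure D3:**
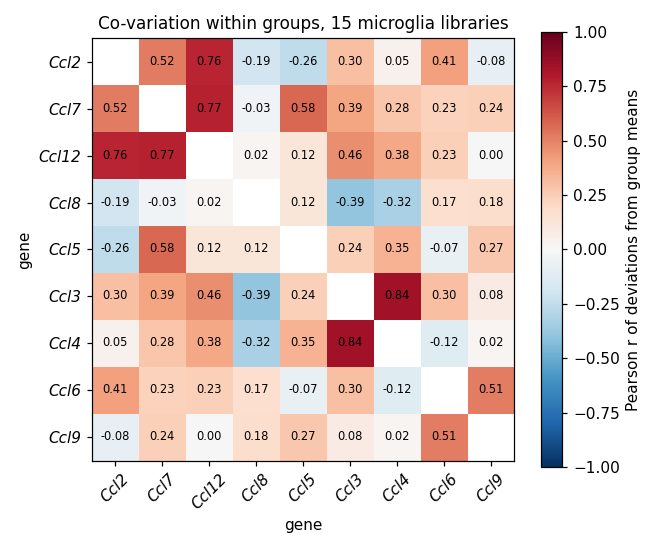
Pearson r of deviations from group means between the 9 genes over 15 microglia libraries, with red for positive and blue for negative r. Ccl3 with Ccl4 (0.84) and Ccl12 with Ccl7 (0.77) and Ccl2 (0.76) stand out, and Ccl8 is weakly or negatively related to the other genes.

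Among 6042 other protein-coding genes with signal in all 15 microglia libraries, those most like each member were found by Pearson r over the libraries, groups included. Ccl5 was like Oasl2 (0.98) and Cd74 (0.97), with r of deviations of 0.83 and 0.54. Ccl7 was most like Herc6 (0.97), Rexo2 (0.95) and Ube2l3 (0.95). Ccl2 was most like Gbp7 (0.95), Bcl2a1d (0.94) and Rtp4 (0.93), and Ccl12 most like Nhp2 (0.94), Rtp4 (0.92) and Igtp (0.92). For Ccl2 and Ccl12 the r of deviations of these genes were 0.78 to 0.88.

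The genes with lower means in EAE, and Ccl8, which was higher, had other neighbours. Ccl3 was most like Hspa1a (0.84), Rgs1 (0.83) and Cd300a (0.82), and Ccl4 like Id2 (0.84), Inpp5k (0.79) and Hspa1b (0.79). Ccl6 was most like Mbnl1 (0.91), Glul (0.91) and Morf4l1 (0.90), and Ccl9 like Dedd (0.85), Hpgds (0.85) and Tacc1 (0.85). Ccl8 was most like Psat1 (0.90), Rps25 (0.89) and Rpl36al (0.89). Rtp4 was the only gene listed for more than 1 member.

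In astrocytes the 9 transcripts were low or listed at 0 without disease. Naive astrocytes listed Ccl3, Ccl4, Ccl7 and Ccl8 at 0 in 4 of 4 libraries, and the highest naive value of any of the other 5 was 2.65, for Ccl9 in library 4. Against naive, 4 of 9 genes (Ccl2, Ccl3, Ccl5 and Ccl7) were called higher in EAE-vehicle astrocytes, where 2.69% of 30718 genes tested were. Of the 11243 genes with a mean of at least 1 log2 FPKM, 754 were called higher. None of the 9 had an adjusted p under 0.05 in limma.

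Ccl5 was the highest of the 9 in EAE astrocytes. Naive libraries held 0.07, 2.59, 0 and 0 log2 FPKM, and EAE-vehicle libraries 2.61 to 7.54 with a median of 5.42. The groups did not overlap, by a margin of 0.02 between naive library 2 and EAE-vehicle library 4. The fitted difference was 4.89 log2 ± 1.16 (SE, limma adjusted p = 0.0880, exact permutation p = 0.00476).

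Transcripts of T and NK cells moved with Ccl5 in these libraries. The mean of their 12 markers was 0.49 to 0.87 in naive, 1.34 to 5.57 in EAE-vehicle and 1.18 to 5.14 in EAE-RIPK1inh-1 astrocytes, with 1 to 7, 7 to 11 and 5 to 10 markers with signal. Cd3e and Cd2 had signal in 6 of 6 EAE-vehicle libraries, while Ncr1 had it in 1. The EAE-vehicle library with the lowest mean (library 4, 1.34) held the lowest Ccl5 of its group (2.61), and the EAE-RIPK1inh-1 library with the lowest mean (library 1, 1.18) listed Ccl5 at 0. The mean of the 9 monocyte and neutrophil markers was 0.15 to 1.40 in naive and 1.96 to 4.25 in EAE-vehicle astrocytes. The part of these cells in the astrocyte values was not tested.

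**Figure D4:**
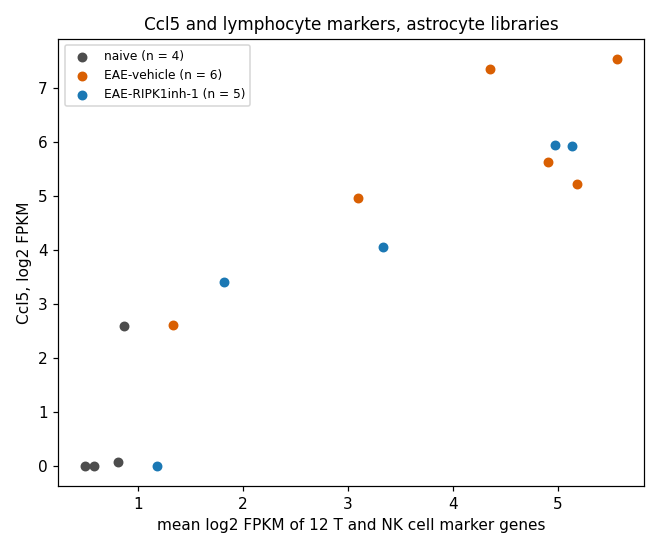
Ccl5 (vertical axis, log2 FPKM) against the mean log2 FPKM of 12 T and NK cell marker genes (horizontal axis), with 1 point per astrocyte library. Naive libraries lie at marker means of 0.49 to 0.87, and the EAE libraries with the lowest marker means, 1.18 and 1.34, have the lowest Ccl5 of their groups.

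Ccl2 was next in EAE astrocytes. Naive libraries held 1.85, 0, 0.64 and 0 log2 FPKM, and EAE-vehicle libraries 0, 4.23, 4.58, 4.05, 4.81 and 5.26. Of the EAE-vehicle libraries, 5 lay above all naive libraries, and library 1, which had the fewest genes with signal, was at 0. The fitted difference was 3.20 log2 ± 1.15 (SE, limma adjusted p = 0.426), and with a replicate block it was 2.44 and not called.

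No fold is given for Ccl3 and Ccl7, since every naive astrocyte library listed them at 0. Ccl3 held 5.72, 2.84, 0.42, 1.58, 0.98 and 2.53 log2 FPKM in EAE-vehicle astrocytes, above 0 in 6 of 6. Ccl7 held 6.81, 0.15, 3.40, 0, 4.97 and 3.01, above 0 in 5 of 6. The highest value of both, and of Ccl12 (3.72), was in library 1, which had the fewest genes with signal (6728). The limma adjusted p-values were 0.389 for Ccl3 and 0.531 for Ccl7.

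Ccl6 held 0, 2.49, 2.00 and 0 log2 FPKM in naive astrocytes and 0, 3.59, 3.10, 4.83, 4.26 and 4.38 in EAE-vehicle astrocytes, and it was not called. Without EAE-vehicle library 1 it was called higher, with a difference of 2.91. Ccl4 had a value above 1 in a single EAE-vehicle library (library 2, 4.46). Ccl12 held 3.72, 0.12, 0.78, 1.29, 0 and 3.66 in EAE-vehicle astrocytes, Ccl9 was at most 1.26 there, and Ccl8 was listed at 0 in 6 of 6.

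**Figure D5:**
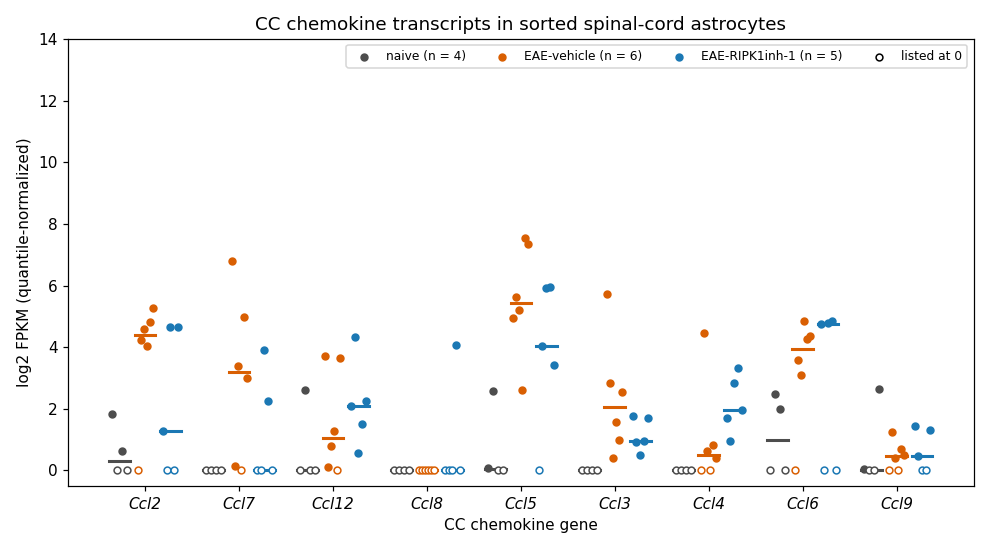
Levels of the 9 CC chemokine genes in log2 FPKM (vertical axis) in astrocyte libraries, drawn as for microglia with 1 point per library, open points for libraries listed at 0 and bars at the medians. Ccl5 and Ccl2 reach the highest medians in EAE-vehicle astrocytes, and Ccl8 has signal in a single EAE-RIPK1inh-1 library.

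RIPK1inh-1 was not followed by a called difference of any of the 9 genes in astrocytes. None of 9 was called against EAE-vehicle, where 3.02% of all genes were, and 0 had an unadjusted or adjusted p under 0.05 in limma. Ccl2 held 1.29, 0, 4.66, 0 and 4.65 log2 FPKM after RIPK1inh-1, Ccl5 held 0, 4.05, 5.93, 5.94 and 3.41, and Ccl7 held 0, 0, 3.91, 2.24 and 0. All 3 had lower means than in vehicle, by differences of -1.70 for Ccl2, -1.68 for Ccl5 and -1.83 for Ccl7, and all 3 overlapped the vehicle range. Their 95% intervals were -4.00 to 0.60, -4.01 to 0.64 and -4.26 to 0.60, so large changes in 1 direction were not excluded.

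Single libraries decided calls in this comparison. Ccl2 was called lower without EAE-vehicle library 1 (-2.46) or EAE-RIPK1inh-1 library 5 (-2.33). Ccl5 (-2.27) and Ccl7 (-2.44) were called lower without EAE-vehicle library 4, Ccl7 also without EAE-RIPK1inh-1 library 3 (-2.50). Ccl4 held 1.70, 0.96, 2.83, 3.33 and 1.95 after RIPK1inh-1, above all EAE-vehicle libraries but library 2, and was called higher without that library (1.78). Ccl3 held 0.50 to 1.76, Ccl6 was 4.75, 0, 4.77, 4.84 and 0, and Ccl12 was 0.56 to 4.34.

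CC chemokine transcripts were more abundant in microglia than in astrocytes. In naive mice, 6 of 9 (Ccl2, Ccl3, Ccl4, Ccl6, Ccl9 and Ccl12) had an adjusted p under 0.05 and were higher in microglia, where 5.94% of 30952 genes were. In EAE-vehicle mice it was 9 of 9 against 7.89%, and in EAE-RIPK1inh-1 mice 9 of 9 against 7.18%. Of the 11489 genes with a mean of at least 1 log2 FPKM, 2019 were so in naive, 2834 in EAE-vehicle and 2569 in EAE-RIPK1inh-1 mice. The Ccl12 difference was 9.02 log2 ± 0.74 (SE) in EAE-vehicle and 8.19 ± 0.81 in EAE-RIPK1inh-1 mice. Ccl5 had the smallest difference in EAE-vehicle mice, 3.05 ± 0.84 (limma adjusted p = 0.0127). Ranges of the cell types overlapped in EAE-vehicle mice for Ccl3 and Ccl8 and did not for the other 7.

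The effect of EAE on these genes was also compared between the cell types. The interaction was called for 5 of 9 genes, where 8.68% of all genes were called in either direction, and no adjusted p was under 0.05. Of the 11489 genes with a mean of at least 1 log2 FPKM, 1156 were called higher and 780 lower. Ccl8 and Ccl12 had the higher EAE difference in microglia, and Ccl3, Ccl4 and Ccl6 the higher one in astrocytes. Every naive astrocyte library listed Ccl3 and Ccl4 at 0. Ccl8 was listed at 0 in all naive libraries of both cell types and in all EAE-vehicle astrocyte libraries. The interactions of Ccl3, Ccl4 and Ccl8 therefore depend on the offset. For Ccl12 the differences were 3.42 in microglia and 0.94 in astrocytes (interaction limma adjusted p = 0.530). For Ccl6 they were -1.12 and 2.24 (interaction limma adjusted p = 0.315). The effect of RIPK1inh-1 differed between the cell types at the cutoff for 1 of 9 genes, Ccl3, against 3.15% of all genes. The Ccl3 differences were 0.89 in microglia and -1.18 in astrocytes (interaction limma adjusted p = 0.948). With 1 library left out they ran from 0.49 to 1.27 in microglia and from -1.57 to -0.51 in astrocytes.

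Few other genes of the pathway were called. Of 12 other CC ligand genes, 9 were in the table and 8 were tested in microglia, and none was called there in EAE or after RIPK1inh-1. In astrocytes 1 of 9 was called higher in EAE and lower after RIPK1inh-1. This was Ccl19, a ligand of Ccr7, which had no signal in naive astrocytes and held 5.52, 0.08, 2.27, 1.54, 3.67 and 3.31 log2 FPKM in EAE-vehicle and 0.07, 0.74, 1.15, 0.07 and 0.11 in EAE-RIPK1inh-1 astrocytes. The adjusted p of Ccl19 in limma was 0.258 for EAE and 0.840 for RIPK1inh-1.

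Of 11 CC receptor genes, 10 were in the table. In EAE microglia none was called higher. Ccr1l1, a receptor-like gene near Ccr1, was called lower (adjusted p = 0.106 in limma) and had signal in 2 of 4 naive and 1 of 6 EAE-vehicle libraries. In EAE astrocytes 1 of 10 was called higher, Ccr2, the receptor of Ccl2, Ccl7 and Ccl12 on monocytes, with signal in 1 of 4 naive and 5 of 6 EAE-vehicle libraries (limma adjusted p = 0.183). No CC receptor was called after RIPK1inh-1 in either cell type, and none of the 4 atypical receptor genes was called in any of these 4 comparisons.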

How the data were processed

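RNA of sorted microglia and astrocytes was sequenced from oligo(dT)-selected libraries. The authors quantified FPKM in OmicSoft Array Studio and deposited log2 values that are quantile-normalized over all 30 libraries. The aligner, the annotation release and the offset before the logarithm are not given in the sources used here. Quantile normalization gave every library the same sorted values, from 0 to 15.34, so depth cannot be recovered and no counting error was computed. Exon lengths in the deposited annotation entered no test. Genes without signal in a library were recognised by tied values that rise with table order.

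Groups came from the deposited labels, which do not say which samples come from the same mouse, so p-values measure the spread between these samples. The fits used lmFit and eBayes with a variance trend in limma 3.58.1 (R 4.3.3), each cell type's 3 groups being fitted together and all 6 groups together for comparisons of cell types. Genes with identical values throughout were left out. A paired test is named in the study's methods, and fits here were unpaired. Exact permutation tests of single genes were two-sided and enumerated every assignment of the libraries to groups. Scripts were tested on simulated data. Promoters were taken from a RefSeq table. SciPy 1.17.1, pandas 2.3.3 and matplotlib 3.10.9 were used in Python 3.11.15.

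The 9 genes, the lists of other ligands, receptors and cell type markers, and the tests were chosen with earlier results of these data known. Named genes were the 9, every gene of the ligand and receptor lists called in EAE or after RIPK1inh-1 within a cell type, and for each of the 9 the 3 protein-coding genes of highest r. Some genes that this rule covers are not reported here. Alternatives were a mean level filter of 1, centring, a pseudocount of 1, values without signal set to 0, array quality weights, only the groups compared, no variance trend, a covariate for genes with signal, a replicate block and each library left out. Leaving out neutrophil-high microglia libraries was added after seeing the data.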

Additional observations from a re-analysis of the deposited data

Results flagged for a closer look

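Dixon's test at the 95% level was applied to 48 sets of values, in groups of 4 to 6 samples. By it, 9 values of the 9 genes stood apart from the rest of their group. Chance alone flags about 1 in 20 sets of normally distributed values. Sets with values listed at 0 do not meet that condition, so the number of flags cannot be read against that rate. In microglia, Ccl8 was listed at 0 in EAE-vehicle library 4 while the next lowest library held 3.50, and Ccl9 was 2.70 in EAE-RIPK1inh-1 library 4 against 4.39 in the next. In naive astrocytes, library 2 stood apart with Ccl5 at 2.59 (next 0.07) and Ccl12 at 2.62 (next 0), and library 4 with Ccl9 at 2.65 (next 0.04). In EAE-vehicle astrocytes, library 1, the library with the fewest genes with signal, was at 0 for Ccl2 (next 4.05) and for Ccl6 (next 3.10), and library 2 held Ccl4 at 4.46 (next 0.84). In EAE-RIPK1inh-1 astrocytes, library 4 held Ccl8 at 4.08 while the other 4 libraries were listed at 0.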

How the results depend on the processing

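The 5 rises in microglial EAE were called under all alternatives run, with 7 to 9 genes called when 1 library was left out and 7 without the neutrophil-high libraries. Counts with an adjusted p under 0.05 were 5 to 6 when 1 library was left out, 9 with centring (which put 982 of all genes higher and 9162 lower, against 685 and 451), 3 with a replicate block and 3 without the neutrophil-high libraries (0.170 for Ccl8 and 0.0542 for Ccl12). The count of all genes higher, 685 of 28958 tested, was 1040 of 10413 with the mean filter. It was 379 with the block and 385 without those libraries. For RIPK1inh-1 in microglia, 0 of 9 called became 2 with quality weights, 1 with only the groups compared and 0 to 2 when 1 library was left out. Quality weights called 2730 of all genes there, against 511. In astrocytes the EAE count of 4 was 2 with the replicate block and 3 to 4 when 1 library was left out, and its adjusted count of 0 was 1 with the mean filter, 2 with quality weights and 0 to 1 when 1 library was left out. Quality weights called 1664 genes higher there, against 827. The RIPK1inh-1 count in astrocytes was 2 with quality weights and 0 to 2 when 1 library was left out. The cell type difference of the EAE effect had 3 genes called with quality weights and 4 to 6 when 1 library was left out, with adjusted counts of 2 with the mean filter, 1 with quality weights and 0 to 2 when 1 library was left out. That of RIPK1inh-1 was 0 with quality weights, 0 without the neutrophil-high libraries and 0 to 2 when 1 library was left out. Over all genes it was 557 with the mean filter, 1604 with quality weights and 606 without those libraries, against 976. For microglia against astrocytes in both EAE groups, 9 genes were called under every alternative run, and the adjusted count of 9 became 8 in EAE-vehicle without the neutrophil-high libraries (Ccl5, 0.0720) and 8 in EAE-RIPK1inh-1 with quality weights (Ccl8, 0.191) and with only the groups compared (also Ccl8). The cause of these shifts was not tested.

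Directions reversed only in differences that were not called. For RIPK1inh-1 in microglia, Ccl2 became 0.0074 with centring and ran from -0.25 to 0.12 when 1 library was left out, and Ccl6 ran from -0.43 to 0.0196. Ccl8 became 0.0739 with the block and 0.17 without the neutrophil-high libraries and ran from -0.86 to 0.14. Ccl9 became 0.0430 with centring and 0.0390 with the block and ran from -0.18 to 0.38. In astrocytes with 1 library left out, Ccl9 ran from -0.42 to 0.47 for EAE and from -0.0346 to 0.33 for RIPK1inh-1, and Ccl6 ran from -1.16 to 0.23 for RIPK1inh-1. Same-numbered libraries did not correlate above 0.1 in every pair of any comparison. In microglia, 3 of 4 same-numbered EAE-vehicle libraries correlated best with their own number in naive, with r up to 0.27. Of the EAE-RIPK1inh-1 libraries, 3 of 5 correlated best with their own number in EAE-vehicle, also with r up to 0.27. The check therefore could not decide whether the numbers pair samples. The block changed no other count of the 9 genes by over 1.5 times. Over all genes it took adjusted counts from 451 to 209 lower in microglial EAE, from 105 to 37 higher and 73 to 24 lower in astrocyte EAE, and from 187 to 63 and 117 to 61 for the cell type difference of the EAE effect. Unknown depth limits what can be said of genes near 0.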
